A study of Mus musculus with 16 samples.

Results

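The 9 genes described here encode WNT antagonists: Dkk1, Dkk2, Dkk3, Sfrp1, Sfrp2, Frzb, Wif1, Notum and Nkd1. They were picked by gene symbol from a gene count table of 53800 genes, and all 9 were found in it and passed the filter on low counts that left 15501 genes for testing. RNA was sequenced from the ectoderm (the surface epithelium with the apical ridge) and the mesoderm (mesenchyme, vessels and blood) of the distal forelimb bud of B6 mouse embryos, a strain written in the labels as B6 with no further allele or treatment. The ectoderm groups and the mesoderm groups each span 4 stages a day apart, E9.5 and E10.5 followed by E11.5 and E12.5, which gives 8 groups of 2 libraries. The forelimb tips were loosened with trypsin on ice and the layers parted by hand, and at each stage the ectoderm and mesoderm libraries sharing a replicate number were taken from 1 embryo batch. The number of embryos per batch is not stated in the labels.

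WNT proteins are secreted, lipid-bearing signals that bind a Frizzled receptor together with an LRP co-receptor and so keep beta-catenin from being degraded. In the limb bud, WNT signals from the ectoderm are needed for the apical ridge and for dorsal identity, and they hold the outer mesenchyme back from becoming cartilage. Antagonists act at different steps. Notum, an enzyme, takes the lipid off WNT proteins; Wif1 and the Frizzled-related proteins Sfrp1, Sfrp2 and Frzb bind WNT proteins outside the cell; Dkk1 and Dkk2 bind the LRP co-receptor; and Nkd1 acts inside the cell on Dishevelled. Dkk3 carries the family name, but its part in WNT signalling is less settled. Several antagonists, Dkk1, Notum and Nkd1 among them, are known to be switched on by WNT signalling itself.

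Total gene counts per library ran from 10005867 to 30438214. Levels are given as CPM, counts per 1e+06 with the effective library sizes of edgeR, with replicate 1 before replicate 2. The layers carried their labels: Epcam stood at 270 to 490 CPM in ectoderm against 1.39 to 8.91 CPM in mesoderm, and Prrx1 at 19.4 to 118 CPM in ectoderm against 410 to 637 CPM in mesoderm. Separation was least clean in replicate 1 of E11.5 ectoderm, where the median of 10 mesenchyme markers stood at 39.0% of its level in mesoderm of the same batch. In the other 7 ectoderm libraries this figure was 3.80% to 21.8%. Replicate 2 of E9.5 ectoderm held more blood, with the median erythroid marker at 28.0% of the mesoderm level, against 0.475% to 5.27% in the other ectoderm libraries. The share of these carried-over cells in any result below was not tested, and values without the E11.5 library are given where they differ in call.

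RefSeq promoter windows (GRCm38.p6), 250 bases before to 50 bases after the annotated start, were at hand for 6 of the 9 genes, namely Dkk1, Dkk2, Sfrp2, Frzb, Wif1 and Nkd1. The 3 printed here, 5′ to 3′ on the strand of the gene, belong to Dkk1 and Wif1, the 2 genes with the largest mesoderm rise at E12.5 against E9.5, and to Frzb, whose level fell in both layers. Capitals mark matches to CTTTGTT and TATAAA.
Dkk1 (chr19:30549447-30549746, minus strand): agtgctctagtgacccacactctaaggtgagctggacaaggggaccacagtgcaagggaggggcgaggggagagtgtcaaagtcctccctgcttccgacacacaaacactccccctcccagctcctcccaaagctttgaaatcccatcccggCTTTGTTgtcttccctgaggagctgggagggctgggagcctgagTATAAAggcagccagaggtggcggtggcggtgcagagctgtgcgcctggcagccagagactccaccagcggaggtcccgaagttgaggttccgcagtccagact
Wif1 (chr10:121033754-121034053, plus strand): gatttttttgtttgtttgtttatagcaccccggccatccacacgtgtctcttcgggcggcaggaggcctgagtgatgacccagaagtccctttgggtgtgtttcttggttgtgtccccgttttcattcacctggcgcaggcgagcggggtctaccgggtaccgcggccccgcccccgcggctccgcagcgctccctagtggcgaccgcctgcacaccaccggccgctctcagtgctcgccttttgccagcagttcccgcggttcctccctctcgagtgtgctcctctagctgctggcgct
Frzb (chr2:80447347-80447646, minus strand): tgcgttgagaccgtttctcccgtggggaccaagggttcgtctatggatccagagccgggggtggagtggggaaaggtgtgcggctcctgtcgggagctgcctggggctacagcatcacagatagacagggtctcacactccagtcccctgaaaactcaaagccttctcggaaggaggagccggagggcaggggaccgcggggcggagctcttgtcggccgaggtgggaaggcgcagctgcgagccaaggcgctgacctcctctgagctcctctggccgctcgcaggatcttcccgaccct

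The words CTTTGAT and CTTTGTT, forms of the core letters that TCF and LEF factors bind, were searched on both strands, and other forms were not. One or the other occurred in 9.3% of 32851 promoter windows of the same length. Among the 6 windows only that of Dkk1 held one, CTTTGTT with its first base at -98 from the start. TATAAA, searched on the strand of the gene and found in 8.3% of windows, occurred in that of Dkk1 at -54 and in that of Dkk2 at -32. In GENCODE the first exon of Dkk1 reaches to position 30549665 of chromosome 19, so both Dkk1 matches lie within that annotated exon. The first exon of Frzb spans positions 80446363 to 80447625, and the Frzb window spans 80447347 to 80447646. Most of the printed Frzb window is thus annotated exon, and its lack of a match says little about sequence before that exon. The first exon of Wif1 begins at position 121033960, so the last part of its window lies within that exon. A match in letters is not evidence of a bound site.

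The genes lie apart on the chromosomes (mm10): Dkk1 at chr19:30545863-30549665, Dkk2 at chr3:132085292-132180304, Dkk3 at chr7:112116017-112159057, Sfrp1 at chr8:23411502-23449632 and Sfrp2 at chr3:83766321-83774316. Frzb lies at chr2:80411970-80447625, Wif1 at chr10:121033960-121100650, Notum at chr11:120653788-120661175 and Nkd1 at chr8:88521354-88594884. Sfrp2 and Notum share exon sequence with antisense genes, and the labels do not say whether the counting used strand. The antisense genes held few counts over the 8 ectoderm and 8 mesoderm libraries, 19 and 35 for Gm26771 at Sfrp2, 219 and 62 for Notumos, and 1 and 0 for Myadml2os at Notum.

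Averaged over the 4 stages, 3 of the 9 antagonists were higher in ectoderm and 5 were lower, and the remaining gene, Sfrp1, did not pass the test. Notum, Dkk3 and Dkk1 were the higher ones, by 2.70 (SE 0.15), 1.28 (SE 0.18) and 1.08 (SE 0.20) on the log2 scale. The lower ones were Dkk2 at -2.03 (SE 0.32), Frzb at -1.67 (SE 0.28), Nkd1 at -1.61 (SE 0.23), Sfrp2 at -1.36 (SE 0.15) and Wif1 at -1.32 (SE 0.38). A gene was called at an adjusted p under 0.05 (edgeR quasi-likelihood test, adjusted by Benjamini and Hochberg over all tested genes). On this average 45.7% of all tested genes were called, 24.3% higher and 21.4% lower, so that a called gene is common here. In bulk RNA, fewer cells of a type and less RNA per cell cannot be told apart. All 8 calls held in each of the 16 fits that left out 1 library.

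**Figure D1:**
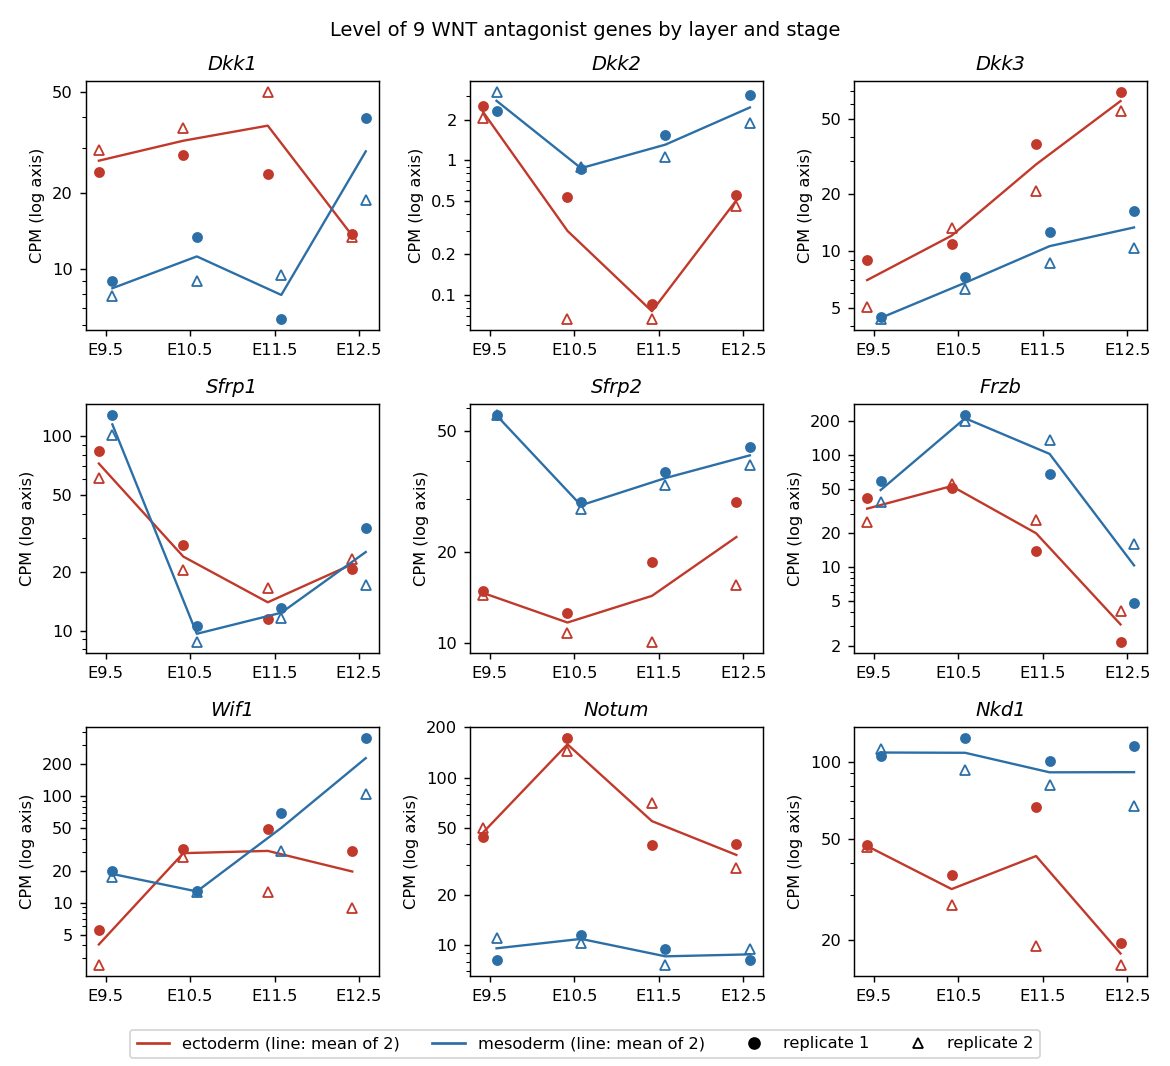
CPM (log axis) of each antagonist gene by stage in ectoderm (red) and mesoderm (blue), with a point for each library and a line through the mean of 2. Notum lies higher in ectoderm at every stage, Nkd1 and Sfrp2 lie lower in ectoderm at every stage, and the lines of Dkk1, Sfrp1 and Wif1 cross.

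Stage by stage, the number of antagonists called differed in the fit without a block. At E9.5, 3 were called, 2 higher and 1 lower in ectoderm, where 21.4% of all genes were called (13.1% higher and 8.29% lower). At E10.5, 6 were called, 3 each way, against 26.4% of all genes (16.2% higher and 10.2% lower). At E11.5 again 6 were called, 3 each way, against 20.6% (12.9% higher and 7.69% lower). At E12.5, 7 were called, 2 higher and 5 lower, against 26.4% of all genes (13.3% higher and 13.2% lower). Blocking on embryo batch, the E9.5 count was 7 in place of 3, in a fit that called 6573 of the 15501 genes in place of 3320. This block also called Dkk3 and Wif1 at E10.5, Wif1 and Nkd1 at E11.5 and Dkk1 at E12.5, and ended no call. Over all genes it called 7531, 6197 and 7080 at these later stages, in place of 4093, 3196 and 4099. The stage difference in the counts thus depended on the fit. Without replicate 1 of E11.5 ectoderm, calls at E11.5 differed for Dkk3 (log2 fold change 0.91), Frzb (-2.03) and Nkd1 (-2.32). Calls also differed at E9.5 for Wif1 (-2.30) and Nkd1 (-1.27), and at E12.5 for Dkk1 (-1.13). Ectoderm libraries all lay above or all below the mesoderm libraries for 7 genes at E9.5, for all 9 at E10.5, for 7 at E11.5 and for 8 at E12.5. The same count was not made over all genes, so these numbers describe the 9 genes and do not set them apart.

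**Figure D2:**
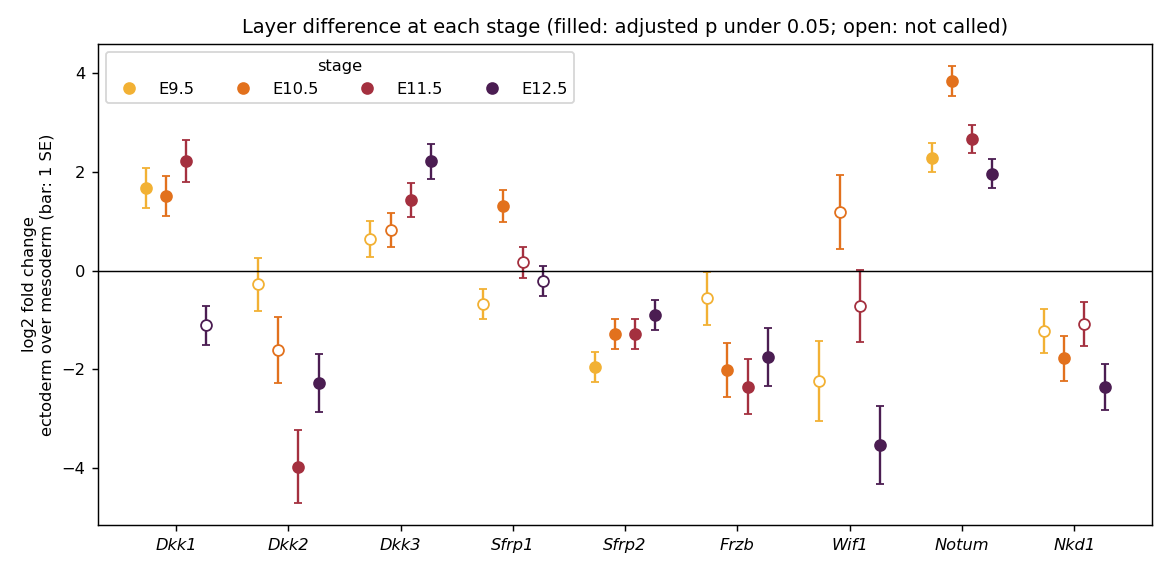
Log2 fold change of ectoderm over mesoderm with its SE for each gene at the 4 stages, from the fit over 16 libraries, with filled points for adjusted p under 0.05. Notum is above 0 at each stage, Sfrp2 below 0 at each stage, and Dkk1 is above 0 at the first 3 stages and at -1.11 at E12.5.

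Notum, the WNT deacylase, had the largest layer difference in favour of ectoderm among the 9 genes at E9.5, E10.5 and E11.5 and on average. In ectoderm it had 44.3 and 49.8 CPM at E9.5, 172 and 144 CPM at E10.5, 39.6 and 70.5 CPM at E11.5, and 40.4 and 28.8 CPM at E12.5. In mesoderm it had 8.17 and 11.1 CPM at E9.5, 11.52 and 10.37 CPM at E10.5, 9.58 and 7.66 CPM at E11.5, and 8.19 and 9.51 CPM at E12.5. The lowest ectoderm library thus lay above the highest mesoderm library, and the E10.5 ectoderm libraries stood above all others. The layer difference was 2.29 (SE 0.29, adjusted p = 0.000170) at E9.5, 3.85 (SE 0.30, adjusted p = 5.06e-06) at E10.5, 2.67 (SE 0.29, adjusted p = 6.46e-05) at E11.5 and 1.97 (SE 0.29, adjusted p = 0.000349) at E12.5.

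Ectodermal Notum was higher at E10.5 than at E9.5 by 1.75 (SE 0.28, adjusted p = 0.00564). That call was lost without replicate 1 (1.66, adjusted p = 0.0692) or replicate 2 (1.83, adjusted p = 0.0592) of E9.5 ectoderm. At E11.5 against E10.5 the ectoderm value was -1.52 (SE 0.28) and was not called (adjusted p = 0.108). With the replicate number as a block it was called (-1.53, adjusted p = 0.00822), and likewise without replicate 2 of E11.5 ectoderm (-1.99, adjusted p = 0.0161). At E12.5 against E9.5 neither layer passed the test, with -0.44 (SE 0.27) in ectoderm and -0.12 (SE 0.28) in mesoderm.

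Dkk1, which binds the LRP co-receptor, changed sides between the layers. Its levels in ectoderm were 24.1 and 29.5 CPM at E9.5, 28.1 and 36.1 CPM at E10.5, 23.8 and 49.8 CPM at E11.5, and 13.8 and 13.3 CPM at E12.5. Its levels in mesoderm were 8.98 and 7.81 CPM at E9.5, 13.4 and 9.004 CPM at E10.5, 6.34 and 9.46 CPM at E11.5, and 39.6 and 18.7 CPM at E12.5. Both ectoderm libraries lay above both mesoderm libraries at the first 3 stages, and below both at E12.5. Dkk1 was higher in ectoderm by 1.67 (SE 0.41, adjusted p = 0.0128) at E9.5, 1.51 (SE 0.41, adjusted p = 0.0166) at E10.5 and 2.22 (SE 0.42, adjusted p = 0.00272) at E11.5. At E12.5 the value was -1.11 (SE 0.40, adjusted p = 0.0658), not called. With embryo batch as the block this E12.5 difference was called (-1.04, adjusted p = 0.00923).

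The change of Dkk1 at E12.5 against E9.5 differed between the layers by -2.78 (SE 0.58, adjusted p = 0.0126), the only antagonist called in this interaction by the unblocked fit, where 8.27% of all genes were called (3.12% higher and 5.15% lower). With embryo batch as the block 5 antagonists were called (Dkk1, Dkk3, Sfrp2, Frzb, Wif1), in a fit that called 3873 of the 15501 genes in place of 1282, and DESeq2 called 2 antagonists and 1967 genes. In mesoderm Dkk1 rose by 1.80 (SE 0.41, adjusted p = 0.00732), and in ectoderm the value was -0.98 (SE 0.40, adjusted p = 0.132). The 2 mesoderm libraries at E12.5 differed by 2.11-fold, yet both lay above the other 6 mesoderm libraries. Without replicate 1 of E12.5 mesoderm, the higher one, the mesoderm rise was 1.155 (adjusted p = 0.0790) and the interaction, still called, -2.14. The interaction was lost without replicate 1 of E12.5 ectoderm (-2.81, adjusted p = 0.0521) or replicate 2 of E9.5 mesoderm (-2.68, adjusted p = 0.0560), and the mesoderm rise without the last of these (1.70, adjusted p = 0.0535).

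Other Dkk1 calls also rested on single libraries. The E9.5 layer call was lost without replicate 2 of ectoderm (1.52, adjusted p = 0.0751) or replicate 1 (1.78, adjusted p = 0.0637) or 2 (1.58, adjusted p = 0.0831) of mesoderm. The E10.5 call was lost without replicate 2 of ectoderm (1.32, adjusted p = 0.0948) or of mesoderm (1.25, adjusted p = 0.122). The E12.5 layer difference became a call without either E11.5 ectoderm library (-1.13 and -1.11) and without replicate 2 of E12.5 mesoderm (-1.55). Over all fits that left out 1 library it ran from -1.55 to -0.47, and it was not called in the rest of them. At E12.5 against E11.5 in mesoderm Dkk1 gave 1.89 (SE 0.41, adjusted p = 0.0852), which was called with the replicate number as a block (1.92, adjusted p = 0.0171) and without replicate 2 of E12.5 mesoderm (2.33, adjusted p = 0.0328). Within mesoderm the cartilage marker list also moved with stage: 5 markers, of 6 listed, summed to 1172 and 733 CPM at E12.5 against 71.4 to 391 CPM in the other mesoderm libraries. The same 5 markers summed to 492 to 1972 CPM in the ectoderm libraries, highest in replicate 1 of E10.5. A sum follows the markers with the most counts. The median of the 5 in E12.5 ectoderm was 16.7% and 21.8% of the level in mesoderm of the same batch. Sox9, 1 of the 5, stood at 15.8 to 68.3 CPM in ectoderm, against 378 and 253 CPM in E12.5 mesoderm. The part of the cartilage markers in the Dkk1 rise was not tested.

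Dkk2, a relative of Dkk1 that can act for or against WNT signalling depending on context, was the antagonist with the fewest counts. The ectoderm libraries had 2.53 and 2.05 CPM at E9.5, 0.532 and 0.0668 CPM at E10.5, 0.0852 and 0.0662 CPM at E11.5, and 0.549 and 0.462 CPM at E12.5. The mesoderm libraries had 2.34 and 3.20 CPM at E9.5, 0.863 and 0.887 CPM at E10.5, 1.55 and 1.07 CPM at E11.5, and 3.05 and 1.89 CPM at E12.5. The layers overlapped at E9.5, and from E10.5 on both ectoderm libraries lay below both mesoderm libraries. At E11.5 ectoderm held 3 counts against 51 in mesoderm, a ratio of 17.5 for mesoderm over ectoderm with a 95% counting interval of 5.65 to 87.5, which covers counting error only. Dkk2 was lower in ectoderm by -3.97 (SE 0.74, adjusted p = 0.00245) at E11.5 and -2.27 (SE 0.59, adjusted p = 0.0131) at E12.5, with fitted values that depend on a small prior count.

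The Dkk2 differences at E9.5 (-0.28, SE 0.54) and E10.5 (-1.61, SE 0.66, adjusted p = 0.101) were not called. Without replicate 1 of E10.5 ectoderm, which held 6 of the 7 ectoderm counts at that stage, the E10.5 value was -3.58 (adjusted p = 0.00966). In ectoderm Dkk2 was lower at E10.5 than at E9.5 by -2.99 (SE 0.66, adjusted p = 0.0279), and at E12.5 than at E9.5 by -2.15 (SE 0.59, adjusted p = 0.0297). The E10.5 against E9.5 value moved to -4.96 (adjusted p = 0.0113) without replicate 1 of E10.5, and was lost without replicate 2 of it (-2.08, adjusted p = 0.145) or replicate 1 (-2.83, adjusted p = 0.123) or 2 (-3.14, adjusted p = 0.121) of E9.5. The E12.5 layer call was lost without replicate 1 (-2.41, adjusted p = 0.0685) or 2 (-2.16, adjusted p = 0.0827) of ectoderm or replicate 1 of mesoderm (-1.88, adjusted p = 0.0928). The E12.5 against E9.5 call in ectoderm was lost without any 1 of its 4 libraries (adjusted p = 0.0915 to 0.144, values -2.303 to -1.999). In mesoderm the E10.5 against E9.5 value, -1.65 (SE 0.56, adjusted p = 0.0949), was called with the replicate number as a block (-1.69, adjusted p = 0.0142) and without either E10.5 ectoderm library (-1.65, adjusted p = 0.0367 and -1.65, adjusted p = 0.0344).

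Dkk3, the divergent member of the family, rose in both layers. In ectoderm it had 8.97 and 5.07 CPM at E9.5, 10.8 and 13.3 CPM at E10.5, 36.6 and 20.8 CPM at E11.5, and 68.9 and 55.1 CPM at E12.5. In mesoderm it had 4.49 and 4.37 CPM at E9.5, 7.31 and 6.28 CPM at E10.5, 12.6 and 8.66 CPM at E11.5, and 16.3 and 10.4 CPM at E12.5. Both ectoderm libraries lay above both mesoderm libraries at every stage, by little at E9.5 and by the widest margin at E12.5. At E12.5 against E9.5, Dkk3 rose by 3.16 (SE 0.37, adjusted p = 0.000245) in ectoderm and by 1.59 (SE 0.36, adjusted p = 0.00665) in mesoderm. The difference between these changes was 1.57 (SE 0.50, adjusted p = 0.0825), not called, and was called with embryo batch as the block (1.62, adjusted p = 0.00287).

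The layer difference of Dkk3 was 0.65 (SE 0.36, adjusted p = 0.256) at E9.5 and 0.82 (SE 0.35, adjusted p = 0.113) at E10.5, neither called. It was 1.43 (SE 0.35, adjusted p = 0.0122) at E11.5 and 2.22 (SE 0.35, adjusted p = 0.000663) at E12.5. With embryo batch as the block the E10.5 difference was called (0.81, adjusted p = 0.00776). The E11.5 call was lost without replicate 1 of E11.5 ectoderm (0.91, adjusted p = 0.118), the library with more mesenchyme markers, or replicate 2 of E11.5 mesoderm (1.19, adjusted p = 0.107). The mesoderm rise was lost without replicate 1 of E12.5 (1.23, adjusted p = 0.0611). Each 1-day step in ectoderm missed the threshold, at 0.80 (SE 0.36), 1.25 (SE 0.35) and 1.11 (SE 0.34), and each was called with the replicate number as a block (adjusted p = 0.0354, 0.0209 and 0.0146).

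Sfrp1, a secreted protein with a Frizzled-like WNT-binding domain, was called between stages in both layers, and between layers at E10.5 alone. Its levels in ectoderm were 83.7 and 61.2 CPM at E9.5, 27.6 and 20.5 CPM at E10.5, 11.4 and 16.6 CPM at E11.5, and 20.6 and 23.3 CPM at E12.5. Its levels in mesoderm were 128 and 102 CPM at E9.5, 10.52 and 8.731 CPM at E10.5, 13.1 and 11.6 CPM at E11.5, and 33.6 and 17.2 CPM at E12.5. Both layers were highest at E9.5, and their libraries overlapped at E11.5 and E12.5. At E10.5 against E9.5, Sfrp1 fell by 1.59 (SE 0.32, adjusted p = 0.0165) in ectoderm and by 3.58 (SE 0.34, adjusted p = 0.000137) in mesoderm. At E12.5 against E9.5 it was lower by -1.72 (SE 0.32, adjusted p = 0.00361) in ectoderm and -2.18 (SE 0.32, adjusted p = 0.000554) in mesoderm.

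Sfrp1 was higher in ectoderm at E10.5 by 1.31 (SE 0.32, adjusted p = 0.00947). At the other stages it was not called, with -0.67 (SE 0.31, adjusted p = 0.156) at E9.5, 0.17 (SE 0.31) at E11.5 and -0.21 (SE 0.31) at E12.5. The E9.5 difference was called with embryo batch as the block (-0.68, adjusted p = 0.0276). The E10.5 layer call was lost without replicate 1 of ectoderm (1.08, adjusted p = 0.0746) or replicate 2 of mesoderm (1.18, adjusted p = 0.0741). In ectoderm the E10.5 against E9.5 call was lost without any 1 of its 4 libraries (-1.82 to -1.35, adjusted p = 0.0529 to 0.160). In mesoderm at E12.5 against E11.5 the value was 1.04 (SE 0.31, adjusted p = 0.231), called with the replicate number as a block (1.02, adjusted p = 0.0402).

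Sfrp2, of the same family, was lower in ectoderm at all 4 stages. The ectoderm libraries had 14.9 and 14.4 CPM at E9.5, 12.6 and 10.8 CPM at E10.5, 18.5 and 10.1 CPM at E11.5, and 29.2 and 15.6 CPM at E12.5. The mesoderm libraries had 56.6 and 56.5 CPM at E9.5, 29.2 and 27.8 CPM at E10.5, 36.8 and 33.4 CPM at E11.5, and 44.6 and 38.8 CPM at E12.5. Both ectoderm libraries lay below both mesoderm libraries at each stage. The difference was -1.95 (SE 0.31, adjusted p = 0.000844) at E9.5, -1.29 (SE 0.31, adjusted p = 0.00869) at E10.5, -1.29 (SE 0.30, adjusted p = 0.0105) at E11.5 and -0.89 (SE 0.30, adjusted p = 0.0465) at E12.5. It did not pass the test at E12.5 against E9.5 in ectoderm (0.62, SE 0.30) or in mesoderm (-0.44, SE 0.30).

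The E12.5 layer call of Sfrp2 was lost without 13 of the 16 libraries, and remained without either E11.5 ectoderm library and without replicate 1 of E12.5 ectoderm. Its value was -1.42 (adjusted p = 0.0109) without replicate 1 and -0.51 (adjusted p = 0.321) without replicate 2 of E12.5 ectoderm. The E10.5 call was lost without replicate 2 of ectoderm (-1.18, adjusted p = 0.0755). The E11.5 call was lost without replicate 2 of ectoderm (-0.92, adjusted p = 0.104) or replicate 1 of mesoderm (-1.21, adjusted p = 0.0569). In mesoderm the E10.5 against E9.5 value, -0.99 (SE 0.30, adjusted p = 0.0630), was called with the replicate number as a block (-0.995, adjusted p = 0.00411), and without any 1 of the 4 ectoderm libraries of E11.5 and E12.5 (adjusted p = 0.0344 to 0.0372). The interaction at E12.5 against E9.5, 1.06 (SE 0.42, adjusted p = 0.177), was called with embryo batch as the block (1.01, adjusted p = 0.0222).

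Frzb, also called Sfrp3 and known for its expression in prechondrogenic limb mesenchyme, had its highest level at E10.5 in both layers. In ectoderm it had 41.3 and 25.2 CPM at E9.5, 50.5 and 55.1 CPM at E10.5, 13.9 and 26.2 CPM at E11.5, and 2.15 and 4.02 CPM at E12.5. In mesoderm it had 59.1 and 38.3 CPM at E9.5, 226 and 199 CPM at E10.5, 67.0 and 137 CPM at E11.5, and 4.75 and 15.98 CPM at E12.5. The layers overlapped at E9.5, and both ectoderm libraries lay below both mesoderm libraries from E10.5 on. Frzb was lower in ectoderm by -2.01 (SE 0.55, adjusted p = 0.0181) at E10.5, -2.35 (SE 0.56, adjusted p = 0.0111) at E11.5 and -1.75 (SE 0.59, adjusted p = 0.0480) at E12.5. At E12.5 against E9.5 it fell by 3.44 (SE 0.61, adjusted p = 0.00302) in ectoderm and by 2.24 (SE 0.56, adjusted p = 0.0117) in mesoderm. In ectoderm E10.5 against E9.5 (0.67, SE 0.54, adjusted p = 0.663) and E11.5 against E10.5 (-1.40, SE 0.55, adjusted p = 0.515) were not called. The mesoderm value at E11.5 against E10.5 was not called either (-1.06, SE 0.53, adjusted p = 0.599).

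In mesoderm Frzb was higher at E10.5 than at E9.5 by 2.13 (SE 0.55, adjusted p = 0.0336), and lower at E12.5 than at E11.5 by -3.31 (SE 0.59, adjusted p = 0.0479). The second of these calls was kept only without replicate 2 of E12.5 mesoderm (adjusted p = 0.0522 to 0.331 without each of the other 15 libraries). The first was lost without any 1 of its 4 libraries (1.85 to 2.48, adjusted p = 0.0914 to 0.192). In ectoderm the E12.5 against E11.5 value, -2.71 (SE 0.60, adjusted p = 0.0815), was called with the replicate number as a block (-2.70, adjusted p = 0.0197), and without replicate 1 (adjusted p = 0.0497) or 2 (adjusted p = 0.0483) of E12.5 mesoderm. The mesoderm fall at E12.5 against E9.5 was lost without replicate 1 of E9.5 (-1.90, adjusted p = 0.0687) or of E12.5 (-1.61, adjusted p = 0.0751).

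The E12.5 layer call of Frzb was lost without 11 of the 16 libraries, and without replicate 2 of E12.5 mesoderm its value was -0.64 (adjusted p = 0.499). The E11.5 call was lost without replicate 1 of E11.5 ectoderm (-2.03, adjusted p = 0.0727) or replicate 2 of E11.5 mesoderm (-1.75, adjusted p = 0.0878). The E10.5 call was lost without replicate 1 (-1.95, adjusted p = 0.104) or 2 (-2.07, adjusted p = 0.0882) of ectoderm or replicate 1 of mesoderm (-1.92, adjusted p = 0.0719). The E9.5 difference, -0.56 (SE 0.54, adjusted p = 0.556), was called with embryo batch as the block (-0.56, adjusted p = 0.00956). So was the interaction, the ectoderm change minus the mesoderm change at E12.5 against E9.5, at -1.20 (SE 0.79, adjusted p = 0.481) without the block and -1.06 (adjusted p = 0.00966) with it.

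Wif1, which binds WNT proteins through its own domain, had the widest range of the 9 genes, 2.59 to 351 CPM. Its levels in ectoderm were 5.49 and 2.59 CPM at E9.5, 31.8 and 26.6 CPM at E10.5, 48.7 and 12.6 CPM at E11.5, and 30.3 and 8.90 CPM at E12.5. Its levels in mesoderm were 19.8 and 17.4 CPM at E9.5, 12.8 and 12.7 CPM at E10.5, 70.1 and 30.6 CPM at E11.5, and 351 and 105 CPM at E12.5. Ectoderm lay below mesoderm at E9.5 and E12.5 and above it at E10.5, and the layers overlapped at E11.5. In both layers at E11.5 and E12.5, replicate 1 was higher than replicate 2 by 2.29-fold to 3.87-fold, a difference that ran with the embryo batch and the RNA kit version, which cannot be told apart. Within each E12.5 batch the ectoderm level was 8.63% and 8.49% of the mesoderm level.

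Wif1 was lower in ectoderm at E12.5 by -3.53 (SE 0.80, adjusted p = 0.00608), and rose in mesoderm at E12.5 against E9.5 by 3.62 (SE 0.80, adjusted p = 0.00613). Without replicate 1 of E12.5 mesoderm these values were -2.41 (adjusted p = 0.0552) and 2.50 (adjusted p = 0.0514). The first was also lost without replicate 2 of E12.5 ectoderm (-2.91, adjusted p = 0.0542), and the second without replicate 2 of E9.5 mesoderm (3.53, adjusted p = 0.0501). The layer differences at the other stages were not called: -2.24 (SE 0.81, adjusted p = 0.0742) at E9.5, 1.19 (SE 0.75, adjusted p = 0.292) at E10.5 and -0.71 (SE 0.73, adjusted p = 0.613) at E11.5. With embryo batch as the block all 3 were called, at -2.29 (adjusted p = 3.52e-05), 1.196 (adjusted p = 0.000594) and -0.86 (adjusted p = 0.00416). The E9.5 difference was also called without replicate 1 (-2.30, adjusted p = 0.0425) or 2 (-2.24, adjusted p = 0.0487) of E11.5 ectoderm.

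In ectoderm Wif1 gave 2.89 (SE 0.83, adjusted p = 0.0838) at E10.5 against E9.5 and 2.32 (SE 0.81, adjusted p = 0.0789) at E12.5 against E9.5. With the replicate number as a block both were called, at 2.98 (adjusted p = 0.00219) and 2.203 (adjusted p = 0.00558), and the second was called without replicate 1 of E11.5 ectoderm (2.34, adjusted p = 0.0492). In mesoderm the last 2 steps gave 1.99 (SE 0.76, adjusted p = 0.378) and 2.18 (SE 0.75, adjusted p = 0.310), called with the replicate number as a block at 1.86 (adjusted p = 0.0292) and 2.09 (adjusted p = 0.0126). The Wif1 interaction at E12.5 against E9.5 was -1.29 (SE 1.08, adjusted p = 0.620), and -1.26 (adjusted p = 0.0161) with embryo batch as the block. Among mesoderm libraries the cartilage marker sum given beside Dkk1 was likewise highest at E12.5, and higher in replicate 1, while 3 ectoderm libraries, both of E10.5 and replicate 1 of E9.5, lay above it. Sox9 alone was higher in both E12.5 mesoderm libraries, at 378 and 253 CPM, than in any ectoderm library (at most 68.3 CPM). The part of the cartilage markers in the Wif1 rise was not tested.

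Nkd1, the intracellular antagonist, was lower in ectoderm on average and was called in no stage comparison within mesoderm. The ectoderm libraries had 47.2 and 46.3 CPM at E9.5, 35.8 and 27.5 CPM at E10.5, 66.4 and 18.9 CPM at E11.5, and 19.4 and 15.96 CPM at E12.5. The mesoderm libraries had 106 and 112 CPM at E9.5, 124 and 93.2 CPM at E10.5, 101 and 81.1 CPM at E11.5, and 115 and 66.8 CPM at E12.5. The highest ectoderm library, replicate 1 at E11.5, was the one with more mesenchyme markers, and at 66.4 CPM it lay just below the lowest mesoderm library at 66.8 CPM. Nkd1 was lower in ectoderm by -1.78 (SE 0.46, adjusted p = 0.0134) at E10.5 and -2.36 (SE 0.47, adjusted p = 0.00276) at E12.5. At E9.5 (-1.22, SE 0.45, adjusted p = 0.0796) and E11.5 (-1.09, SE 0.45, adjusted p = 0.123) it was not called.

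With embryo batch as the block the Nkd1 differences at E9.5 (-1.22, adjusted p = 0.00369) and E11.5 (-1.30, adjusted p = 0.00303) were called. Without replicate 1 of E11.5 ectoderm they were -1.27 (adjusted p = 0.00517) and -2.32 (adjusted p = 0.000961), and without replicate 2 of it the E9.5 value was -1.22 (adjusted p = 0.00766). The E10.5 call was lost without replicate 1 (-1.98, adjusted p = 0.0511) or 2 (-1.60, adjusted p = 0.105) of ectoderm or replicate 1 of mesoderm (-1.56, adjusted p = 0.0786). In ectoderm at E12.5 against E9.5 the value was -1.40 (SE 0.46, adjusted p = 0.0612). It was called with the replicate number as a block (-1.43, adjusted p = 0.00550) and without replicate 1 (-1.38, adjusted p = 0.00567) or 2 (-1.40, adjusted p = 0.00616) of E11.5 ectoderm. The E12.5 against E11.5 value, -1.27 (SE 0.45), was called without replicate 2 of E11.5 ectoderm (-1.91, adjusted p = 0.0123). In mesoderm at E12.5 against E9.5 the value was -0.26 (SE 0.44, adjusted p = 0.728).

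Counted over the genes, 4 antagonists were called at E12.5 against E9.5 in ectoderm, 1 higher (Dkk3) and 3 lower (Dkk2, Sfrp1, Frzb), where 16.1% of all genes were called (9.1% higher and 7% lower). In mesoderm 5 were called, 3 higher (Dkk1, Dkk3, Wif1) and 2 lower (Sfrp1, Frzb), against 29.6% of all genes (17% higher and 12.6% lower). The first 1-day step in ectoderm, E10.5 against E9.5, had 3 antagonists called, Notum higher and Dkk2 and Sfrp1 lower, against 4.14% of all genes (2.95% higher and 1.18% lower). The step at E11.5 against E10.5 had 0 by the edgeR test, against 0.00645% of all genes (0.00645% higher and 0% lower), and that at E12.5 against E11.5 had 0, against 0.426% (0.116% higher and 0.31% lower). At an unadjusted p under 0.05, 4 antagonists passed at the first of these 2 steps (Dkk3, Sfrp1, Frzb, Notum) and 6 at the other (Dkk1, Dkk2, Dkk3, Frzb, Notum, Nkd1). The share of all genes at that unadjusted threshold was not counted, so the shares above are no measure for these 2 counts. DESeq2 called 1 and 2 antagonists at these steps, where it called 221 and 430 genes. In mesoderm, E10.5 against E9.5 had 2 called, Frzb higher and Sfrp1 lower, against 9.24% of all genes (5.3% higher and 3.95% lower). E11.5 against E10.5 in mesoderm had 0 by edgeR and by DESeq2, against 0.394% of all genes by edgeR (0.277% higher and 0.116% lower). There 1 antagonist (Wif1) passed at an unadjusted p under 0.05, again with no share of all genes counted. E12.5 against E11.5 in mesoderm had 1, Frzb, lower, against 0.31% of all genes (0.148% higher and 0.161% lower); this count was 4 with no low-count filter, 2 by DESeq2 and 0 to 2 with 1 library left out. With the replicate number as a block, the antagonists called in the 3 steps were 5, 2 and 2 in ectoderm, where that fit called 2371, 434 and 565 of the 15501 genes. In mesoderm they were 4, 1 and 4, where it called 4297, 746 and 805 genes.

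Levels of different genes can be set side by side only per length, for which the FPKM values of the authors were used (mean ± SD, n = 2). In ectoderm Notum had the highest FPKM at E9.5 (17.9 ± 1.56), E10.5 (60.2 ± 4.001) and E11.5 (21.9 ± 9.35), and Dkk3 at E12.5 (14.7 ± 1.52). At E9.5 the next gene, Nkd1 (17.7 ± 0.322), at E11.5 the next, Nkd1 again (15.8 ± 12.9), and at E12.5 the next, Notum (13.4 ± 3.13), lay within the spread. In replicate 1 of E11.5 ectoderm the order turned, with Nkd1 at 24.9, Wif1 at 17.0 and Notum at 15.3 FPKM. At E10.5 Notum made up 51.2% of the FPKM sum of the 9 genes. In mesoderm Nkd1 led at E9.5 (40.1 ± 1.95) and E11.5 (35.3 ± 5.72), Frzb at E10.5 (56.1 ± 1.18) and Wif1 at E12.5 (84.2 ± 58.8, 51.8% of the sum). At E11.5 Nkd1 lay within the spread of the next gene, Frzb (28.5 ± 14.9), and in replicate 2 Frzb stood above Nkd1, at 39.1 against 31.2 FPKM. The spread of Wif1 at E12.5 reaches the level of the next gene, Nkd1 (34.3 ± 11.9). Within each library Wif1 stood above Nkd1, at 125.8 against 42.7 FPKM in replicate 1 and 42.6 against 25.8 FPKM in replicate 2. Dkk2 was lowest in all 8 groups, between 0.0172 and 0.592 FPKM.

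**Figure D3:**
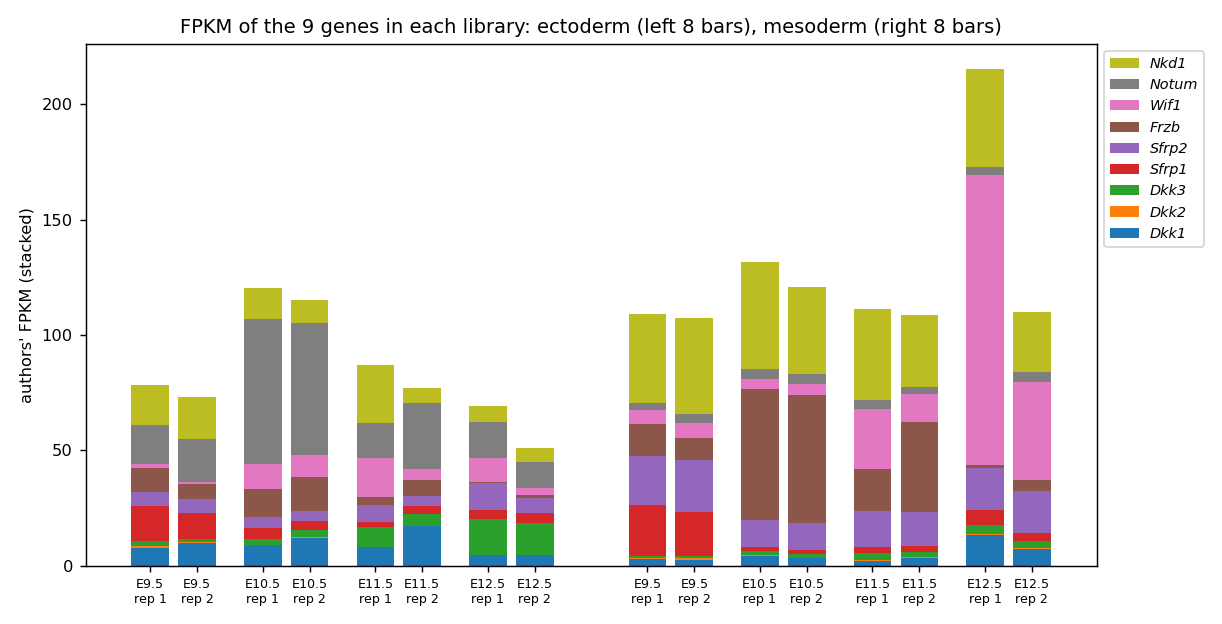
FPKM of the authors, stacked over the 9 genes, for each ectoderm library (left) and each mesoderm library (right). The sum ran from 50.9 to 120 in ectoderm and from 107 to 215 in mesoderm, where Wif1 fills much of the E12.5 replicate 1 bar.

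The ectoderm level of the 5 antagonists that were lower in ectoderm on average was set against mesoderm of the same batch, beside the median mesenchyme marker. Nkd1 stood at 16.9% to 66.0% of its mesoderm level, Sfrp2 at 25.4% to 65.5% and Frzb at 19.1% to 69.8%. In replicate 1 of E11.5, where the median marker was at 39.0%, Nkd1 was at 66.0%, Sfrp2 at 50.4% and Frzb at 20.7%. In replicate 2 of E11.5, with the median marker at 6.86%, Nkd1 was at 23.3%, Sfrp2 at 30.2% and Frzb at 19.1%. Nkd1 and Sfrp2 thus stood above the median marker in all 8 batches, and Frzb in all but that replicate 1 of E11.5. Wif1, at 8.49% to 249% of its mesoderm level, stood below the median marker in 1 batch, replicate 2 of E9.5 (14.9% against 15.8%). Dkk2, at 5.49% to 108%, stood below it in 3 batches, replicate 2 of E10.5 (7.53% against 11.9%) and replicate 1 (5.49% against 39.0%) and replicate 2 (6.21% against 6.86%) of E11.5. The part of carried-over mesenchyme in these levels was not tested.

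**Figure D4:**
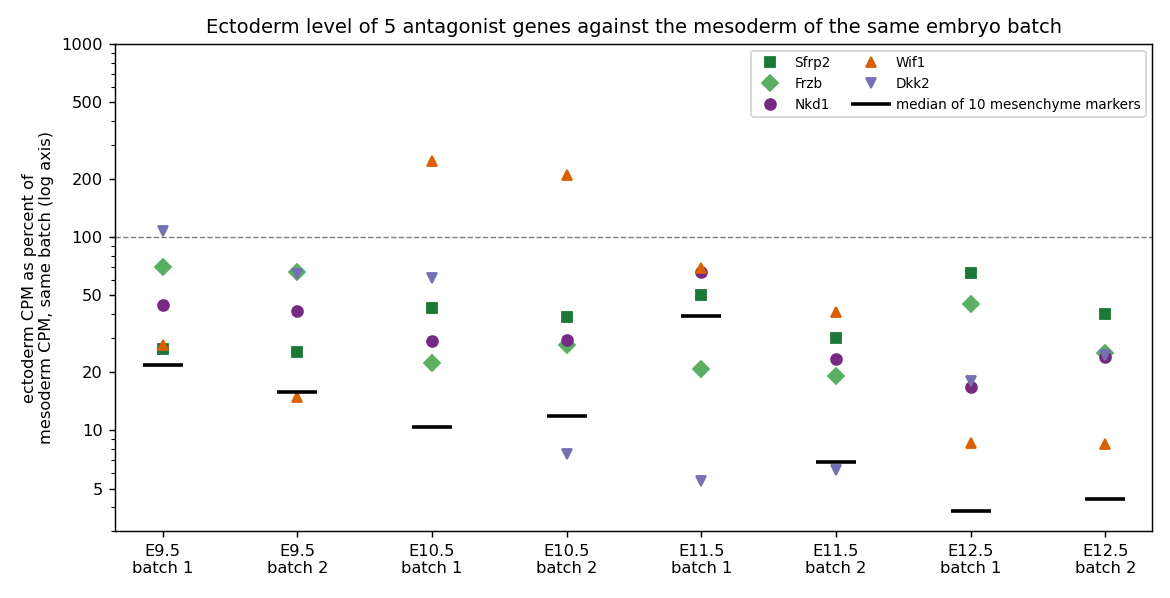
Ectoderm CPM as a percent of mesoderm CPM of the same embryo batch (log axis) for the 5 genes lower in ectoderm on average, with a bar for the median of 10 mesenchyme markers. The bar is highest in E11.5 batch 1, at 39.0%, and Wif1 lies above 100% in both E10.5 batches.

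Counts per exon bin (exons split wherever a transcript starts or ends an exon) were used to compare which parts of the genes held the reads. For all 9 genes the percent of the gene's bin counts in each bin overlapped between ectoderm and mesoderm libraries, in every bin. The widest gap in pooled bin use was 13.4 percentage points, in the last exon of Dkk2 with 91 ectoderm and 311 mesoderm counts, and for the other 8 genes it was at most 3.61. In Nkd1 the exon at chr8:88527653-88527777, which begins inside the RefSeq promoter window (chr8:88527383-88527682), held 0 counts in ectoderm and 1 in mesoderm. The 3 bins before it, from position 88521354, held 105, 108 and 344 counts in ectoderm and 348, 474 and 1345 in mesoderm. The Nkd1 promoter window of RefSeq therefore reaches into an exon with almost no counts here, and it was not printed.

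Over the 16 libraries, the genes most like each antagonist by Pearson correlation of log2(CPM+1) were sought among 13298 tested genes, as a description. They were Vcan (0.87) and Tiam2 (0.85) for Dkk1, Ednrb (0.91) and St3gal1 (0.90) for Dkk2, and Orai2 (0.98) and Heph (0.96) for Dkk3. Sfrp1 was nearest to Rarb (0.95) and Wnt2 (0.94), Sfrp2 to St3gal6 (0.95) and Baiap2l2 (0.95), and Frzb to Slc4a4 (0.91) and Eme1 (0.91). Wif1 was nearest to Pcdhga10 (0.93), Notum to 2310007B03Rik (0.99) and Kcna1 (0.98), and Nkd1 to Serpinf1 (0.98) and Nid2 (0.98). Among the antagonists themselves the closest pair was Sfrp2 and Nkd1 (0.74). The points share layer, stage and batch, so these values describe the 16 libraries.

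Other genes of the pathway were read from 6 fixed lists. On the layer average used for them, 24.3% of all tested genes were higher in ectoderm and 21.4% lower. Of 16 WNT ligands tested, 14 were higher in ectoderm on average and 1 was lower, with a median of 6.67 on the log2 scale against 0.01 over all tested genes. Wnt7a, the dorsal ectoderm signal, was higher by 8.39 (SE 0.43), and Wnt5b was lower by -0.75 (SE 0.20). Of 20 receptor and co-receptor genes 10 were higher and 2 lower (median 0.37), led by Kremen2, a receptor that works with Dkk proteins, at 7.84 (SE 0.27). The Kremen2 level was 60.9 to 170 CPM in ectoderm, against 1.83 CPM or less in mesoderm.

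Of 20 other WNT inhibitors tested, 8 were higher in ectoderm and 9 lower (median -0.17), against 3 higher and 5 lower of the 9 antagonists. Over all tested genes these shares were 24.3% higher and 21.4% lower. Sost, an LRP-binding antagonist known from bone, was higher by 6.21 (SE 0.32), at 34.6 to 159 CPM in ectoderm against 0.349 to 2.66 CPM in mesoderm. Nkd2, the relative of Nkd1, was lower by -2.57 (SE 0.26), the same direction as Nkd1. Of 9 genes of the R-spondin axis 5 were higher and 3 lower, among them Rnf43, a ligase that removes Frizzled from the surface, at 5.81 (SE 0.18). Of 16 canonical targets 9 were higher and 4 lower (median 1.01), and of 16 genes of the beta-catenin relay 4 were higher and 1 lower (median 0.17). The count of higher relay genes was near the share over all tested genes.

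At E12.5 against E9.5 the other inhibitors gave 0 higher and 5 lower of 20 in ectoderm, where 9.1% of all genes were higher and 7% lower. In mesoderm they gave 7 higher and 4 lower, where 17% of all genes were higher and 12.6% lower. Nkd2 rose in mesoderm by 2.09 (SE 0.51); Nkd1 was not called there, and the difference between the 2 genes was not tested. Canonical targets, set against the same shares of all genes, gave 0 higher and 6 lower of 16 in ectoderm, and 2 higher and 4 lower in mesoderm. Among the ligands, Wnt5a rose in mesoderm by 3.85 (SE 0.20) and Wnt7b in ectoderm by 3.57 (SE 0.53). The lists were fixed with earlier results of these data known and carry no test of their own.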

How the data were processed

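Per the labels' protocols, polyadenylated RNA of each layer was sequenced from a stranded kit, with a different version of 1 RNA kit for replicate 1 and replicate 2. Per the submitters' processing notes, reads were handled on build mm10 with STAR 2.6.0c, cutadapt 1.16, bedtools 2.27.1 and Cufflinks 2.2.1 (in no stated order). The authors deposited gene counts as whole numbers, FPKM values, and counts per exon bin; the counting tool and its strand setting are not given in the sources used here. Gene counts were tested with edgeR 4.0.16 in R 4.3.3 (TMM scaling, low counts removed with filterByExpr, quasi-likelihood F test, 1 mean for each of 8 groups) in 14 comparisons over 15501 genes, with Benjamini-Hochberg adjustment. Residual spread came from all 16 libraries, and a p-value reflects only how these samples vary. Alternatives were RLE scaling, DESeq2 1.42.0, no low-count filter, each library left out, and replicate blocks. The block was the embryo batch for layer comparisons and the replicate number for stage comparisons. The labels give same-numbered layers of a stage 1 embryo batch, so the numbers pair them. Replicate differences of the layers correlated across genes at r = 0.546 to 0.666 within a batch and 0.432 to 0.58 between stages. Exon bins were rebuilt from protein-coding transcripts of GENCODE M21 (96.3% of genes matched). The fit was also run on simulated counts with the same spread for all genes and no stage or batch effect. Such counts hold no batch pairing, so that run cannot show how the unblocked fit treats it. All 9 genes are named whatever their values, and of the lists the called genes with the largest change, at most 2 per list and direction, from which the text takes a few. The members and lists were chosen with earlier results of these data known.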

Additional observations from a re-analysis of the deposited data

Results flagged for a closer look

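The change of Dkk1 at E12.5 against E9.5 differed between ectoderm and mesoderm by -2.78 on the log2 scale, by the interaction test (adjusted p = 0.0126). Further differences in the layer contrast between stages were noted because every ectoderm library lay on 1 side of the mesoderm libraries at one stage and on the other side at another; these were not tested. For Dkk1 the layer difference at E12.5 minus that at E10.5 was -2.62, and minus that at E11.5 it was -3.33. For Sfrp1 the layer difference at E10.5 minus that at E9.5 was 1.99. For Wif1 it was 3.44 at E10.5 minus E9.5, and -4.73 at E12.5 minus E10.5.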

How the results depend on the processing

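RLE scaling changed no call of the 9 genes in any of the 14 comparisons, no setting reversed a called value, and the median of all genes in the layer average stayed within -0.037 and 0.0245. DESeq2 added 13 member calls, the fit without a low-count filter 27, the embryo batch block 13 and the replicate number block 14; beyond the calls given in the report, the blocks changed none. Leaving out 1 library, where the lone library of its group is assumed to vary like the other groups, ended 90 of the member calls over all fits and added 23. The causes were not tested. Dkk2 in ectoderm rests on 3 to 58 counts a stage, so its folds are bound by depth.

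Antagonists called were, with no low-count filter, 5 at E9.5, 7 at E12.5 against E9.5 in ectoderm, 5 in the interaction, 3 and 4 in the last 2 ectoderm steps, and 2 and 4 in the last 2 mesoderm steps. That fit, over the 28342 genes with any count, called 3404 genes at E9.5. It called 2720 at E12.5 against E9.5 in ectoderm and 1716 in the interaction. With DESeq2 the antagonists called were 5 at E9.5, where 3954 genes were called, and 2 in the interaction. They were 1 and 2 in the last 2 ectoderm steps, and 4 and 2 in the first and last mesoderm steps. With the replicate block they were 7 at E9.5, 5 in the interaction, 5, 2 and 2 in the ectoderm steps, and 4, 1 and 4 in the mesoderm steps.

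Over all genes, the embryo batch block called 6573, 7531, 6197 and 7080 in the 4 layer comparisons by stage, and 3873 in the interaction (DESeq2 1967). The replicate number block called 5480 in ectoderm and 7987 in mesoderm at E12.5 against E9.5, 2371, 434 and 565 in the ectoderm steps, and 4297, 746 and 805 in the mesoderm steps. DESeq2 called 1157, 221 and 430 in the ectoderm steps and 2153, 397 and 405 in the mesoderm steps. With no filter, 1209, 500 and 639 were called in the ectoderm steps, and 545 and 553 in the last 2 mesoderm steps.

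With each library left out in turn, antagonists called ran 2 to 5 at E9.5, 2 to 6 at E10.5, and 3 to 8 at E12.5, and they ran 1 to 5 in mesoderm at E12.5 against E9.5, and 0 to 1 in the interaction. They ran 0 to 3, 0 to 1 and 0 to 1 in the ectoderm steps, and 1 to 3 and 0 to 2 in the first and last mesoderm steps. All genes called ran 2084 to 3445, 2692 to 4187 and 1803 to 3159 in the layer comparisons of the first 3 stages, 1110 to 2519 in ectoderm and 2773 to 4622 in mesoderm at E12.5 against E9.5, and 649 to 1300 in the interaction. They ran 145 to 694, 0 to 153 and 0 to 252 in the ectoderm steps, and 614 to 1475, 0 to 115 and 0 to 131 in the mesoderm steps.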
